A study of Homo sapiens with 6 samples.

Results

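The glutathione S-transferases described here are 10 genes of 6 classes, chosen by gene symbol: Gsta4 (alpha), Gstm1, Gstm2 and Gstm5 (mu), Gstp1 (pi), Gsto1 (omega), Gstt1 and Gstt2 (theta), and the membrane-bound Mgst1 and Mgst3. They are 10 of 16325 genes with a count in any of 6 RNA-seq libraries, and 9 of them were among the 12293 genes with enough counts to test. MOC2, a line of mouse oral squamous carcinoma (HNSCC, head and neck squamous cell carcinoma) cells, gave 3 control and 3 HuR knockout libraries. Both groups had received lentiviral particles, carrying either a control or a HuR-directed CRISPR/Cas9 construct, at an MOI of 25 for 18 hours, followed by 72 hours of culture. HuR, encoded by Elavl1, is an RNA-binding protein that is known to stabilise many mRNAs through AU-rich elements. The genotype label says knockout while the titles abbreviate it as KD, and 1 clone was isolated for the loss of HuR. The effect of losing HuR and traits of that clone therefore cannot be told apart. The triplicates are called biological, but no source states separate clones or cultures, so that p-values capture only how far these libraries spread, perhaps in part technically. Symbols are of mouse form although the sample records name human.

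Glutathione S-transferases join the thiol of glutathione to electrophiles such as lipid peroxidation products, carcinogens and alkylating drugs. The conjugates are then exported by ABC transporters and trimmed to mercapturates. The soluble alpha, mu, pi and theta enzymes form dimers in the cytosol, the omega class carries an active-site cysteine and acts mainly as a thioltransferase, and the microsomal enzymes belong to a separate membrane protein family. Several of these genes are known targets of the oxidative stress factor NRF2, and the pi and mu enzymes are known for drug resistance in carcinomas.

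Total counts lay between 16158516 and 21294330 per library and the ranges of the 2 groups overlapped. Elavl1 mRNA was at 107, 120 and 117 CPM in control libraries 1, 2 and 3 and at 116, 114 and 105 CPM in knockout libraries 1, 2 and 3 (adjusted p = 0.82), so its level does not check the labels. CPM here are counts scaled to each library's TMM-adjusted total. Knockout library 3 stood apart from the other knockout libraries, with which it correlated at 0.927 and 0.932 (Pearson's r of log2 CPM across genes, which are not independent replicates), against 0.981 between knockout libraries 1 and 2. Values without knockout library 3 are therefore given for some genes. Where none is given, the result may still depend on that library. The labelled epithelial origin was checked against 24 epithelial and keratinocyte markers. Epcam, Cdh1, Krt8 and Krt18 were present in every library, but each fell in knockout. Epcam fell from 541 to 36.9 CPM and Cdh1 from 599 to 44.7 CPM (adjusted p = 0.000645 and 0.000694). Krt8 fell from 2313 to 1122 CPM and Krt18 from 1172 to 307 CPM (adjusted p = 0.0145 and 0.00103). Krt5 stayed at or under 2.29 CPM, and Trp63 rose from 0 in every control library to 1.53, 4.51 and 15.8 CPM in the knockout libraries (adjusted p = 0.0165). Trp63 is in 1 of 1704 rows of the table whose values were all multiples of 11 and were divided by it, and none of the 10 transferases is in such a row.

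Of the 10 genes, 7 were higher in the knockout libraries, Gstt1 and Mgst3 did not pass the test, and Gstt2 had too few counts to test. Without control library 2 or control library 3 the number was 4 in each case. In these 2 fits 1166 of 12555 and 1228 of 12562 genes tested were higher. By edgeR's quasi-likelihood test on all 6 libraries (adjusted p under 0.05), 20.3% of genes tested were higher in knockout and 15.4% lower. In total 35.7% changed in either direction. None of the 9 tested genes was lower in knockout by edgeR, DESeq2 or limma-voom, at the adjusted threshold or an unadjusted p under 0.05. Gstm2 reached the count minimum only through its knockout counts, and without it 6 of 8 tested genes rose. The groups did not overlap for 7 of the 9, each with knockout above control; over all genes tested 57.6% did not overlap, 29.7% with knockout above control. The median log2 fold change of the 9 tested genes was 2.09, against 0.03 over all genes tested. Both this median and the 7 genes without overlap include Gstm2, and neither was computed without it. Together the 10 genes held 477, 369 and 405 CPM in control libraries 1, 2 and 3 and 1237, 1188 and 1504 CPM in knockout libraries 1, 2 and 3. The summed level was thus higher in each knockout library than in any control library.

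**Figure D1:**
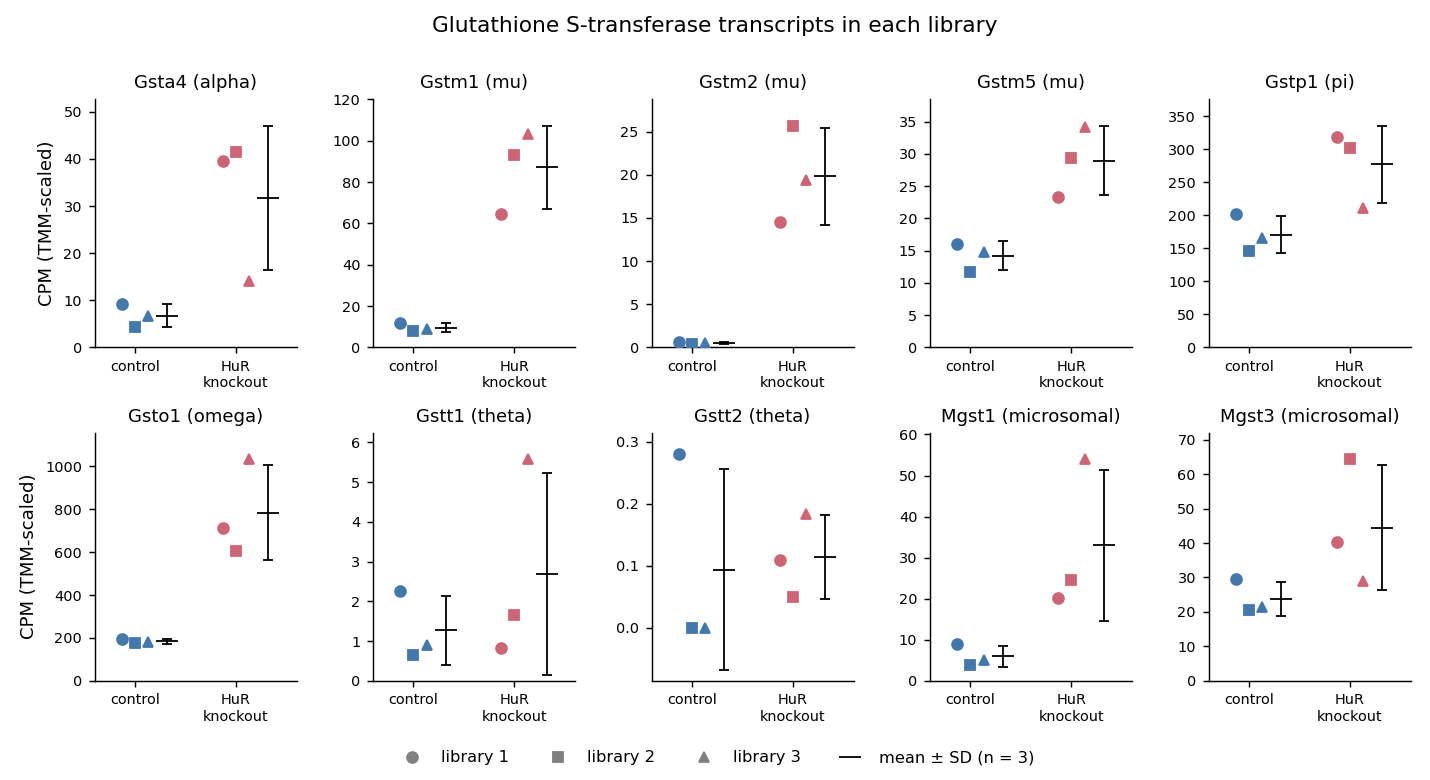
CPM of each transferase gene on a linear axis, with 1 panel per gene and 1 symbol per library (circle, library 1; square, library 2; triangle, library 3); the dash and bars are the mean ± SD of 3 libraries, and the bar of Gstt2 runs below 0. For Gstm1, Gstm2 and Gsto1 the groups lie far apart, for Gstp1 they nearly touch, and for Gstt1, Gstt2 and Mgst3 they overlap.

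Among the mu genes, Gstm1 and Gstm2 had the largest fold changes of the 10 genes and Gstm5 a smaller one. Gstm1, which detoxifies epoxides and other electrophiles, was at 11.9, 7.81 and 9.05 CPM in control libraries 1, 2 and 3 and at 64.6, 93.2 and 104 CPM in knockout libraries 1, 2 and 3. Every knockout library thus lay well above every control library. Gstm1 rose 9.06-fold (log2 fold change 3.18, SE 0.25, adjusted p = 0.000539). Gstm2, a mu enzyme known to conjugate dopamine-derived quinones, was nearly silent in control, at 0.562, 0.393 and 0.547 CPM, which came from 12, 8 and 9 counts. In knockout it was at 14.5, 25.7 and 19.4 CPM. In fold, the groups were further apart than for any other of the 10 genes. This rise of 39.2-fold (log2 fold change 5.29, 95% interval 4.50 to 6.09, adjusted p = 0.000325) had the smallest p of the family.

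Gstm5, the third mu gene described here, was at 16.1, 11.7 and 14.8 CPM in the control libraries and at 23.4, 29.4 and 34.1 CPM in knockout. It rose 2.04-fold (log2 fold change 1.03, SE 0.20, adjusted p = 0.00998), with no overlap between the groups. Without control library 2 this call was lost (adjusted p = 0.0514). The mu genes are a tandem cluster in the mouse genome and are similar in sequence. How reads that match several of them were counted is not given in the sources used here, so the split between Gstm1, Gstm2 and Gstm5 is uncertain.

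Of the other mu genes, Gstm7 and Gstm4 moved in opposite directions, each reaching the count minimum only through the group where it was high. Gstm7 rose 32.1-fold, from 0.562, 0.147 and 0.122 CPM in the control libraries to 3.38, 12.3 and 12.4 CPM in knockout (adjusted p = 0.00428; 65.6-fold without control library 1). Gstm4 fell 7.07-fold, from 1.17, 0.688 and 0.911 CPM to 0.163, 0.196 and 0 CPM (adjusted p = 0.0239). Gstm4 no longer passed when control library 1, 2 or 3 was left out (adjusted p = 0.0869, 0.0623 and 0.0821) or with the replicate number as a block (adjusted p = 0.0547). Gstm3 and Gstm6 stayed at or under 0.245 CPM and were not tested.

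Gsto1, the omega class thioltransferase that also reduces dehydroascorbate, made up the largest part of the rise in summed counts. It was at 197, 174 and 182 CPM in control libraries 1, 2 and 3. In knockout libraries 1, 2 and 3 it was at 714, 605 and 1033 CPM, and the lowest of these lay far above the highest control value. The rise was 4.25-fold (log2 fold change 2.09, SE 0.22, adjusted p = 0.00118) and 3.58-fold without knockout library 3. Its relative Gsto2 was at 1.36, 0.835 and 0.547 CPM in the control libraries and at 2.13, 1.76 and 5.57 CPM in knockout and did not pass (adjusted p = 0.0565; 0.0207 by DESeq2). Without knockout library 3 the log2 fold change of Gsto2 was 1.07 where it had been 1.76.

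Gstp1, the pi class enzyme often abundant in carcinomas, differed least among the genes that passed. Control libraries 1, 2 and 3 held 201, 146 and 165 CPM and knockout libraries 1, 2 and 3 held 319, 302 and 211 CPM. Control library 1 and knockout library 3 thus lay almost level. The rise of 1.63-fold (log2 fold change 0.70, 95% interval 0.21 to 1.20, adjusted p = 0.0391) no longer passed on leaving out control library 1, 2 or 3 (adjusted p = 0.059, 0.158 and 0.141) or knockout library 1 or 2 (adjusted p = 0.0912 and 0.0981). Without knockout library 3 it was 1.82-fold (adjusted p = 0.00138). Gstp2, a near copy of Gstp1, stayed at or under 1.22 CPM (adjusted p = 0.885), and reads shared by the pair may have been split between them or dropped.

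Gsta4, the alpha class enzyme that conjugates hydroxynonenal from lipid peroxidation, was at 9.17, 4.32 and 6.68 CPM in control. In knockout libraries 1 and 2 it was at 39.6 and 41.6 CPM, but in knockout library 3 at 14.1 CPM, nearer to control. Gsta4 rose 4.72-fold (log2 fold change 2.24, SE 0.48, adjusted p = 0.0131), and 6.02-fold without knockout library 3. Leaving out control library 2 or control library 3 ended the call (adjusted p = 0.0554 and 0.0589). The liver-type alpha genes Gsta1, Gsta2 and Gsta3 stayed at or under 0.344 CPM and were not tested.

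The microsomal enzymes were both higher on average, but only Mgst1 passed. Mgst1, which sits in the endoplasmic reticulum and outer mitochondrial membrane and also acts as a peroxidase, was at 8.89, 3.83 and 5.04 CPM in the control libraries and at 20.3, 24.6 and 54.0 CPM in knockout. The groups did not overlap, and knockout library 3 held more than either other knockout library. Mgst1 rose 5.55-fold (log2 fold change 2.47, SE 0.49, adjusted p = 0.01), or 3.78-fold without knockout library 3, and leaving out control library 3 ended the call (adjusted p = 0.0512). Mgst3 was at 29.5, 20.4 and 21.4 CPM in the control libraries and at 40.3, 64.3 and 28.9 CPM in knockout. Its lowest knockout value, in library 3, lay under its highest control value. The log2 fold change of Mgst3 was 0.90 (95% interval 0.15 to 1.66, adjusted p = 0.0657); DESeq2 called it (adjusted p = 0.0305), as did edgeR without knockout library 3 (2.20-fold, adjusted p = 0.011). The third microsomal gene, Mgst2, stayed at or under 3.00 CPM and was not tested.

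Gstt1 and Gstt2 of the theta class were scarce, and no difference was found for either. Gstt1, which acts on small halogenated compounds, was at 2.25, 0.638 and 0.911 CPM in the control libraries and at 0.817, 1.67 and 5.57 CPM in knockout. The groups overlapped, with the highest value in knockout library 3. Its log2 fold change was 1.06 (95% interval -0.87 to 2.99, adjusted p = 0.34), 1.78 without control library 1 and -0.03 without knockout library 3. Gstt2 had 6 counts over the control libraries, all in library 1, and 6 over the knockout libraries. The ratio of knockout to control was 1.06 with an exact 95% Poisson interval of 0.282 to 3.95, which covers counting error only, so that no difference was detectable at this depth. Gstt3, a further theta gene that reached the count minimum only through its control counts, fell 4.40-fold, from 2.67, 1.62 and 1.58 CPM in the control libraries to 0.436, 0.343 and 0.551 CPM in knockout (adjusted p = 0.00836).

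**Figure D2:**
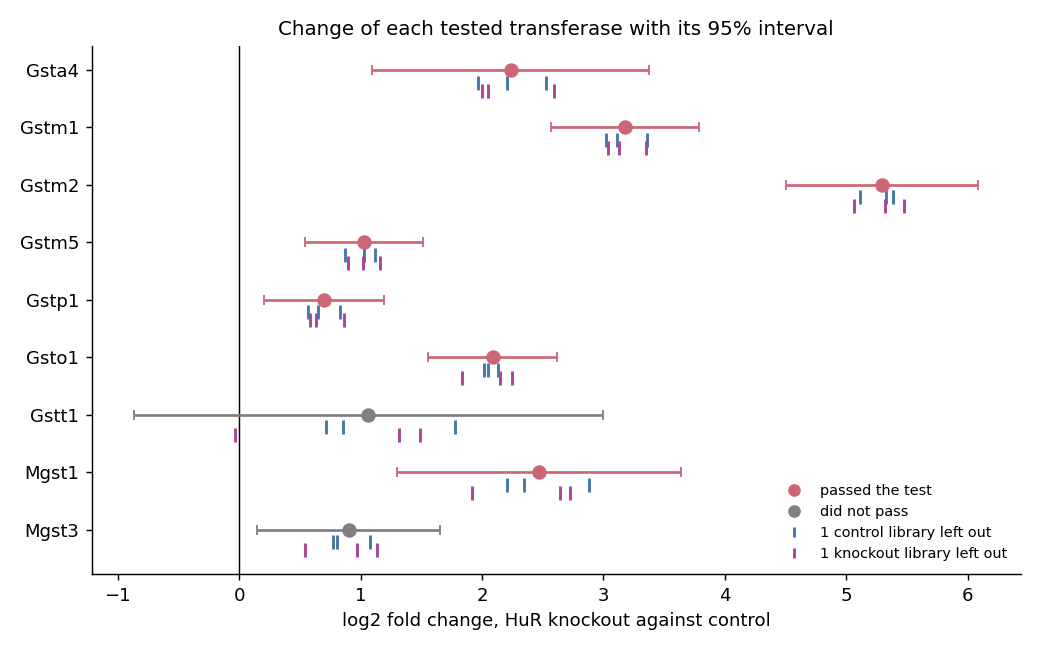
Log2 fold change of knockout against control for the 9 tested transferase genes, with 95% intervals; the short ticks under each point are the values with 1 control or 1 knockout library left out. Gstm2 at 5.29 stands furthest from 0, and the ticks of Gstt1 run from -0.03 to 1.78.

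The genes also varied among themselves within each group. In control, all 9 tested genes had their highest value in library 1, their middle value in library 3 and their lowest in library 2, an order seen in 20.8% of all genes tested and noticed after the values were seen. The highest control value was 1.13 times the lowest for Gsto1 and 3.52 times for Gstt1. Among the knockout libraries, library 3 was highest for 5 of the 9 genes and lowest for 3, against 43.2% and 41.6% of all genes tested. It held 4.49 times the mean of knockout libraries 1 and 2 for Gstt1, 2.40 times for Mgst1 and 1.57 times for Gsto1. For Gsta4, Mgst3 and Gstp1 it held 0.349, 0.553 and 0.679 times that mean. A single library allows no test of these differences.

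Ratios between pairs of genes within a library do not depend on its depth or scaling, and gene length cancels when they are compared across libraries. The pairs, 4 in number, were chosen after the values had been seen. Gsto1 had 0.979, 1.20 and 1.11 counts per count of Gstp1 in control and 2.24, 2.00 and 4.90 in knockout. Among the mu genes, Gstm1 had 0.673 ± 0.0667 counts per count of Gstm5 in control and 2.99 ± 0.206 in knockout (SD, n = 3 each). The knockout libraries were close to each other in this ratio, at 2.76, 3.17 and 3.03. Gstm2 had 0.0526 ± 0.00696 counts per count of Gstm1 in control and 0.229 ± 0.0444 in knockout. Mgst1 had 0.301, 0.188 and 0.235 counts per count of Mgst3 in control and 0.503, 0.383 and 1.87 in knockout. No pair of groups overlapped, and for each of the 4 ratios the two-sided exact permutation test of log2 ratios gave p = 0.1 (Benjamini-Hochberg adjusted 0.1), the smallest value that 3 against 3 libraries allow.

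**Figure D3:**
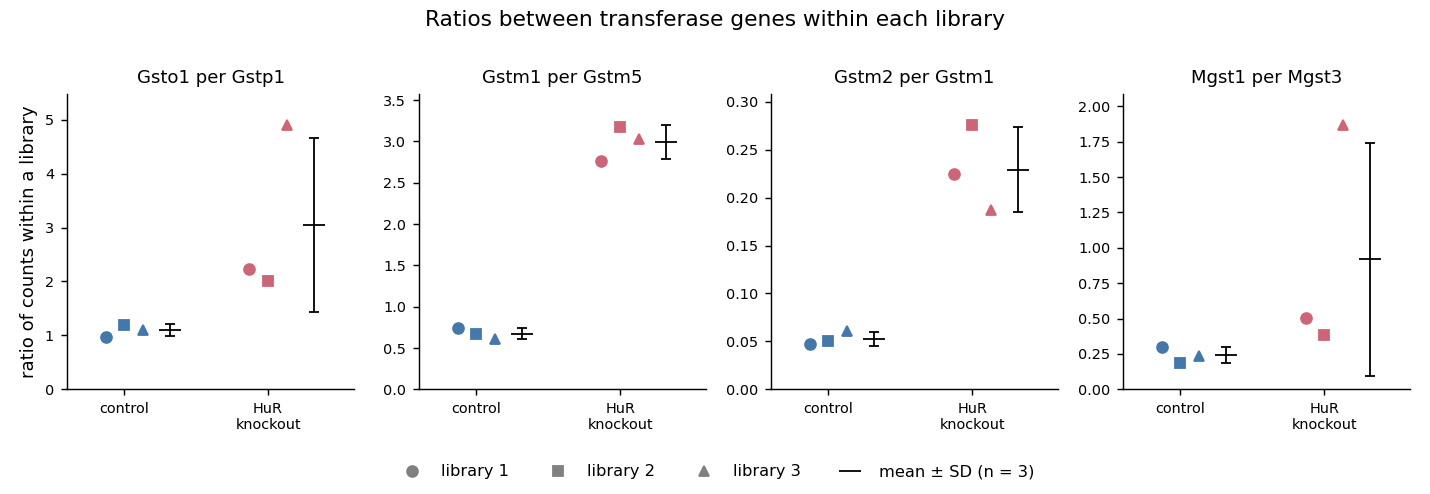
Ratios of counts of 2 transferase genes within each library on linear axes, with the mean ± SD of 3 libraries per group. Each ratio is higher in all knockout libraries than in any control library; knockout library 3 lies apart for Gsto1 per Gstp1 and Mgst1 per Mgst3, whereas the ratio of Gstm1 to Gstm5 varies little within a group.

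The make-up of the summed counts also differed between the groups, though these shares were not tested. Gsto1 took 44.5 ± 2.97% of the counts of the 10 genes in control and 59.1 ± 8.95% in knockout (SD, n = 3 each). Gstp1 took 40.8 ± 1.37% in control and 21.7 ± 6.69% in knockout. The 3 mu genes held 24.3 ± 4.31 CPM together in control and 136 ± 29.3 CPM in knockout. These are shares of counts, not scaled by transcript length, and serve to compare libraries and not genes.

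Of 17 other glutathione transferase genes, 7 were tested. Gstm7 rose, Gstt3 and Gstm4 fell, and the other 4, among them Gsto2 and Gstp2, did not pass. The 3 called genes reached the count minimum through 1 group only, so their number supports nothing about the list. The median log2 fold change of these 7 was 0.12. Without knockout library 3, and by DESeq2, 2 genes of this list were called higher. Over all genes tested, 3178 of 12471 and 2832 of 12293 were called higher. Without control library 1, 2 or 3, or under the block, 1 was called lower. Over all genes tested, these fits called 1174 of 12478, 1146 of 12555, 1130 of 12562 and 1615 of 12293 lower.

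Of 14 tested genes that make and recycle glutathione, 3 rose, 2 fell and 9 did not pass. The share changed, 35.7%, equalled that over all genes tested. Gclc, the catalytic subunit of the ligase that begins glutathione synthesis, rose 7.49-fold, from 51.1, 38.1 and 46.1 CPM in the control libraries to 275, 353 and 385 CPM in knockout (adjusted p = 0.000331). The groups lay far apart. Cbs, which feeds cysteine synthesis, rose 14.1-fold from 1.01 ± 0.304 to 14.5 ± 8.22 CPM (SD, n = 3 each; adjusted p = 0.00409). Glutathione reductase, Gsr, fell 2.31-fold, from 351 ± 6.04 to 152 ± 45.3 CPM (SD, n = 3 each; adjusted p = 0.00924). Ggct, which breaks down gamma-glutamyl peptides, fell 2.83-fold (adjusted p = 0.0103). The modifier subunit Gclm, singled out after its values were seen, was at 114, 115 and 106 CPM in the control libraries and at 82.9, 87.7 and 36.1 CPM in knockout (adjusted p = 0.138).

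**Figure D4:**
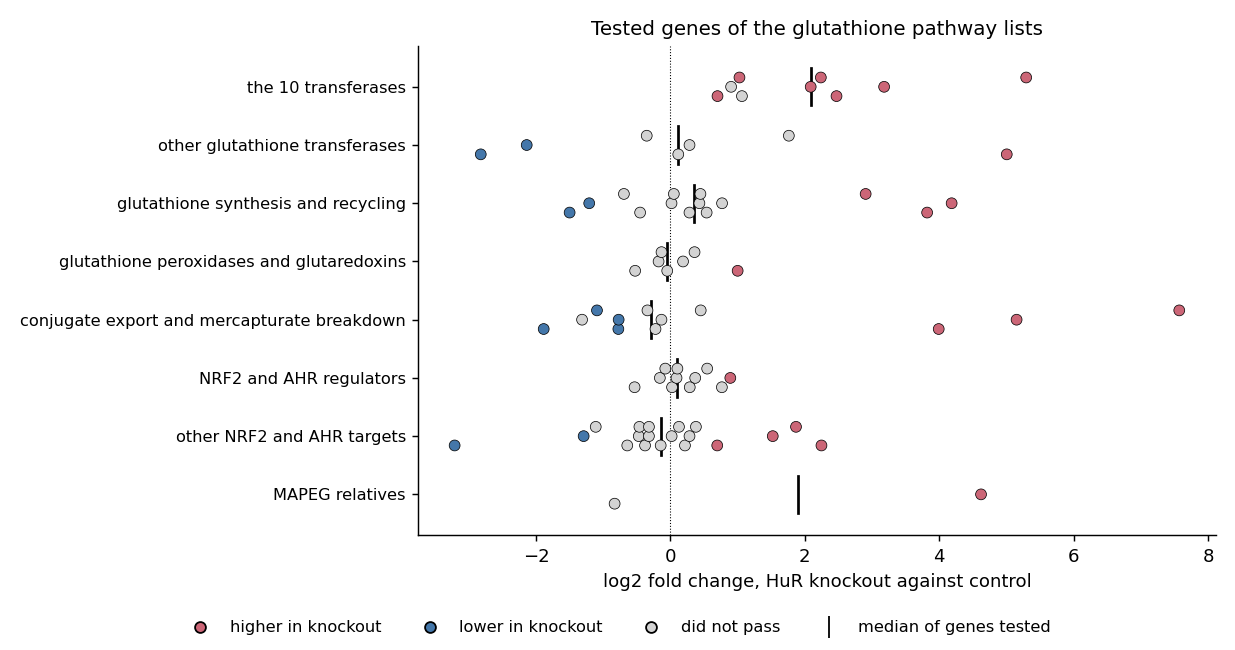
Log2 fold change of each tested gene of the 10 transferases and of 7 lists of related genes; colours show the call and black bars the median of the tested genes. The transferases lie to the right of 0, while the lists with over 2 tested genes have medians from -0.28 to 0.36.

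Among glutathione peroxidases and glutaredoxins, 1 of 7 tested genes rose (14.3%, against 20.3% of all genes tested). This was the thiol reductase Glrx, by 2.00-fold from 5.81 ± 0.885 to 11.6 ± 2.86 CPM (SD, n = 3 each, adjusted p = 0.0254). This call was lost without control library 1, 2 or 3 or knockout library 1 (adjusted p = 0.0563, 0.112, 0.104 and 0.0552). Without knockout library 3 the list had 2 genes called higher, when 3178 of all 12471 genes tested were higher. For Glrx2, Glrx5 and Gpx8 the log2 fold change was 0.36, -0.53 and -0.18, none of them passing (adjusted p = 0.0921, 0.213 and 0.313).

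Of 12 tested genes that export conjugates or trim them to mercapturates, 3 rose, 4 fell and 5 did not pass, or 58.3% changed against 35.7% of all genes tested. Ggt7, of the gamma-glutamyltransferase family, rose 35.5-fold, from 0.739 ± 0.205 to 26.2 ± 3.17 CPM (SD, n = 3 each; adjusted p = 0.000205). Acy3, an aminoacylase that deacetylates mercapturates, rose 15.9-fold (adjusted p = 0.00263). Dpep1 rose from 0.0468, 0.442 and 0.182 CPM in the control libraries to 3.87, 25.4 and 102 CPM in knockout (adjusted p = 0.00956). Acy3 and Dpep1 reached the count minimum only through their knockout counts, so the share changed supports nothing about the list. The exporter gene Abcc4 fell 2.13-fold, from 133 ± 9.71 to 62.3 ± 3.99 CPM (SD, n = 3 each; adjusted p = 0.00117). Cndp2, a dipeptidase that cleaves cysteinylglycine, fell 1.71-fold (adjusted p = 0.00407). Without control library 1 or 3 or knockout library 2, 2 genes of this list fell. Over all genes tested, 1174 of 12478, 1130 of 12562 and 1450 of 12444 fell in these fits.

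Of 11 tested regulators of NRF2 and of the aryl hydrocarbon receptor, 1 rose (9.09%, against 20.3% of all genes tested). This was Ahr, the receptor itself, by 1.85-fold from 12.5 ± 1.08 to 23.3 ± 6.62 CPM (SD, n = 3 each; adjusted p = 0.0272), a call lost without control library 1, 2 or 3 or knockout library 2 (adjusted p = 0.0705, 0.11, 0.112 and 0.0589) and with the replicate number as a block (adjusted p = 0.0626). Nfe2l2, which encodes NRF2, was at 69.6, 78.3 and 81.8 CPM in the control libraries and at 104, 87.7 and 105 CPM in knockout (adjusted p = 0.0642; 0.0459 without knockout library 3). Its repressing competitor Bach1 had a log2 fold change of 0.77 (adjusted p = 0.0649) and passed by DESeq2, under the block and without knockout library 1 or 3 (adjusted p = 0.0373, 0.0462, 0.0199 and 0.044). The partner Mafk had one of -0.53 (adjusted p = 0.0871; 0.00233 without knockout library 3). Without knockout library 3, 4 genes of this list rose and 2 fell, when 3178 of all 12471 genes tested rose and 2843 fell.

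Of 19 tested genes among other NRF2 and AHR targets, 4 rose, 2 fell and 13 did not pass. The share changed was 31.6%, near the 35.7% of all genes tested. The list had 2, 1 and 1 higher without control library 1, 2 or 3 and 2 higher under the block. In these fits 1511 of 12478, 1166 of 12555, 1228 of 12562 and 1976 of 12293 genes tested were higher. Osgin1, an oxidative stress response gene, fell 9.26-fold, from 316 ± 44.7 to 34.1 ± 10.7 CPM (SD, n = 3 each; adjusted p = 0.000597). Thioredoxin reductase, Txnrd1, fell 2.45-fold, from 353 ± 2.01 to 144 ± 44.1 CPM (SD, n = 3 each; adjusted p = 0.00834). The microsomal epoxide hydrolase Ephx1 rose 4.75-fold, from 2.27 ± 1.11 to 10.9 ± 1.76 CPM (SD, n = 3 each; adjusted p = 0.0057). The ferritin heavy chain Fth1 rose 2.87-fold (adjusted p = 0.0198) but did not pass with control library 1, 2 or 3 left out (adjusted p = 0.0537, 0.0868 and 0.085). Nqo1, the NRF2 target most used as a marker and singled out after its values were seen, stayed at or under 0.545 CPM in every library and was not tested. Of the membrane protein relatives of the microsomal transferases, Alox5ap, tested only through its knockout counts, rose 24.6-fold to 3.90 ± 1.89 CPM (adjusted p = 0.00363; 44.3-fold without control library 1). Ptges, a prostaglandin E synthase, was at 21.5 ± 2.92 CPM in the control group and 12.1 ± 7.76 CPM in knockout (adjusted p = 0.177; 2.81-fold lower with adjusted p = 0.000379 without knockout library 3).

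The genes whose pattern was most like that of Gstm2 over the 6 libraries were Emilin1, Hgsnat and Fgfr1, each with a Pearson's r of log2 CPM of 0.999. They were picked as the highest of 10112 genes, of which 881 had an r over 0.95. All 6 points share the split into 2 groups, and r is given as a description only. Emilin1, an elastic fibre protein, was at 0.115 CPM in the control group and 41.3 CPM in knockout. Hgsnat, a lysosomal acetyltransferase, was at 49.3 and 75.2 CPM, and the receptor gene Fgfr1 at 89.3 and 263 CPM.

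Cell type markers moved with the same split of the libraries. Of 21 tested epithelial and keratinocyte markers, 12 fell and 2 rose (57.1% and 9.52%, against 15.4% and 20.3% of all genes tested). Trp63, which rose, reached the count minimum only through its knockout counts. The summed level of the list was 12848 to 15944 CPM in the control group and 6508 to 9265 CPM in knockout. Of 20 fibroblast markers, 13 were tested and 12 rose (92.3%, against 20.3% of all genes tested). Of these, Pdgfrb, Mgp, Col6a2, Col6a3 and S100a4 reached the count minimum only through their knockout counts, so this share supports nothing about the list. The sum went from between 2330 and 2360 CPM in the control libraries to between 12520 and 15117 CPM in knockout. Vim alone held 2218, 2267 and 2240 CPM in the control libraries and 7020, 6839 and 5478 CPM in knockout. Lum was at 0 in every library and Col1a2 at or under 0.122 CPM. Of 16 endothelial markers, 3 of 4 tested rose (75%, against 20.3% of all genes tested). Plvap, which rose, reached the count minimum only through its knockout counts, so this share supports nothing about the list. The sum was 21.2 to 34.5 CPM in the control group and 180 to 271 CPM in knockout. Flt1 made up most of that sum, with 22.9 CPM on average in the control libraries and 210 CPM in the knockout libraries, while Erg, Cldn5 and Robo4 were at 0 throughout. Leukocyte markers summed to 3.09 to 7.82 CPM in the control group and 3.82 to 37.8 CPM in knockout, of which Cd68 made up 36.9 CPM in knockout library 3. Ptprc was at 0 in every knockout library. Fewer cells of a type and less RNA per cell cannot be told apart in such libraries, and the part of these shifts in the values of the transferases was not tested.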

How the data were processed

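RNA was measured by RNA-seq in 6 libraries, 3 per group, assigned by their titles. The authors deposited whole-number counts per gene symbol. Tools named, with no role stated, are STAR 2.7.1a, featureCounts and hg38, per the submitters' processing notes. How reads matching several genes were counted, with which annotation and strand setting, is not given in the sources used here. In 1704 rows with 0 in control library 1, all values were multiples of 11. These rows were divided by 11, and 76 of them were tested. The main test was edgeR's robust quasi-likelihood test (version 4.0.16, R 4.3.3) on 12293 genes kept by filterByExpr, scaled by TMM, adjusted after Benjamini and Hochberg at a threshold of 0.05. This procedure was run on simulated data in which far fewer genes changed than were called here. Its limit on false calls failed on a single draw at first and was then applied to the average over several draws. Standard errors were derived from fold changes and their F values. The common biological coefficient of variation was 28.0%. Alternatives used DESeq2 1.42.0 and limma 3.58.1, among others. No 2 libraries of a group agreed within sampling noise. Named genes are the 10 transferases, Elavl1 and up to 4 tested genes per list with the smallest p (2 where none passed). The 3 genes most like the transferase with the smallest p are also named. The other genes named (Gstp2, the untested transferases, Gclm, Dpep1, Nqo1 and single cell type markers) were singled out after their values were seen. The genes and lists were chosen with earlier results of these data known. Mouse coordinates, sequences and transcript lengths were not used here, so levels of different genes are not compared.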

Additional observations from a re-analysis of the deposited data

How the results depend on the processing

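Across 14 alternatives, Gstm1, Gstm2 and Gsto1 kept their direction and their call, and Gsta4, Gstm5, Mgst1 and Gstp1 kept their direction and were called in 12, 13, 13 and 9. The number of transferases higher in knockout was 7 under each scaling, filter and treatment of the divided rows and by limma-voom. It was 8 by DESeq2, which called 2832 of 12293 genes tested higher. Leaving out 1 library gave 4 to 8 transferases changed, 4 to 8 higher and 0 lower, while genes changed numbered 2312 to 6021 in all, 1166 to 3178 higher and 1130 to 2843 lower. The lowest values for the transferases came without control library 2 or 3, when 18.4% and 18.8% of all genes were called. The highest came without knockout library 3, when 48.3% of all genes were called. With 1 library left out, the log2 fold change of Gstt1 ranged from -0.031 to 1.78 and that of Elavl1 from -0.089 to 0.0061; the sign turned without knockout library 3, and neither gene passed in any of these fits; the cause was not tested. Replicate numbers are shared by the groups, but deviations of same-numbered libraries correlated at -0.04, 0.28 and 0.04, so they were not treated as pairs; with the replicate number as a block 3591 genes and 7 transferases changed. The scaling by library totals was added after seeing the data. With 3 libraries per group, depth limits Gstt2 and the other genes that were not tested.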
